A study of Drosophila melanogaster with 12 samples.

Results

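The genes described here are the UDP-glycosyltransferases and the glutathione transferases of *Drosophila melanogaster*, taken as every gene whose FlyBase symbol starts with Ugt and a digit or with GstD, GstE, GstO, GstS, GstT or GstZ. This rule, which uses no measured value, gave 70 of the 17510 genes counted, 35 *Ugt* and 35 *Gst* genes, and all 70 symbols of the reference table were found among the counted genes. They were followed in mRNA of dissected central nervous systems (CNSs) of larvae in the third instar, raised at 25 °C, in 2 experiments of 6 libraries. In the first, *CTCF0* mutants, which lack both zygotic and maternally inherited CTCF, were set against w1118 wildtype (WT) larvae. In the second, *Cp190KO* mutants, transheterozygous for independently made knockout alleles and in which maternal Cp190 protein may remain, were set against w1118 larvae of their own. Each group had 3 libraries from 60 pooled CNSs each, so a value is an average over many larvae and over all cell types of the CNS. The experiments were sequenced on different instruments, as paired-end reads for *CTCF0* and its WT and as single-end reads for *Cp190KO* and its WT, and levels were scaled within each experiment. Both the CTCF and the Cp190 gene lie on chromosome 3, as do 35 of the 70 genes described here.

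Both families conjugate small molecules. Glutathione transferases join the tripeptide glutathione to electrophilic compounds, among them products of lipid oxidation, and UDP-glycosyltransferases of insects join a sugar from a UDP-sugar donor to hydroxyl groups and the like, which makes the product more soluble and easier to export. In flies both families are known for the handling of insecticides and plant toxins in gut, fat body and Malpighian tubules, and many members arose by tandem duplication, so that near relatives stand side by side on the chromosome.

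Reads counted on genes ranged from 12638505 to 15650376 in *CTCF0* and from 11652548 to 17935428 in its WT, and from 16678885 to 21522453 in the libraries labelled *Cp190KO* and from 16126996 to 20410398 in their WT. *CTCF* itself was at 2.26 ± 0.604 CPM in *CTCF0* libraries and at 40.8 ± 1.48 CPM in WT libraries (read counts scaled to a common library size, SD, n = 3 each), so it was lower in the mutant by a log2 fold change of -4.17 ± 0.24 (SE, adjusted p = 6.5e-05). *Cp190* did not show its knockout in the counts, with 32.0 ± 8.38 CPM in the libraries labelled *Cp190KO* and 37.1 ± 11.6 CPM in their WT (SD, n = 3 each, log2 fold change -0.22 ± 0.29, adjusted p = 0.81), although the deletion removes the reading frame. The second mutant group is therefore called by its label, and every direction given for it rests on that label. Its replicate 3 library stood apart in that 375 genes held 1 to 3 counts, against 1738 to 2199 genes in each of the other 11 libraries. Nothing in the labels says how the replicates were kept apart before dissection, so the p-values measure the spread between these libraries.

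The 70 genes fell into 11 tandem clusters, defined as neighbours on one chromosome with gaps of at most 20 kb, which held 50 of them, and 20 genes stood alone. The largest was the *GstD* cluster on chromosome arm 3R (dm6 positions 12364776 to 12385624, 20.8 kb), with all 11 *GstD* genes and 2 other genes, CG10035 and lncRNA:CR46015, inside. A cluster of 9 *Ugt* genes lay on the same arm (11151026 to 11177910, 26.9 kb), and *Ugt35C1* stood 22.7 kb to its left. Chromosome arm 2R carried 10 *GstE* genes in 13.2 kb (18396638 to 18409835). The *Ugt36* cluster on 2L held *Ugt36F1*, *Ugt36D1* and *Ugt36E1*, the last pair with 53 bp between them. Reads that fit several copies cannot be placed with certainty in such arrays. Exons of 11 of the 70 genes overlapped those of a gene on the other strand, for instance *Ugt36A1* with CG15418 over 400 bp, and the strand option of the counting is not given in the sources used here.

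In WT CNSs the glutathione transferases were far more abundant than the UDP-glycosyltransferases. Given as CPM per kb of exon, the only scale on which genes are compared with each other here, 16 genes had a mean above 10 over the 6 WT libraries, and 14 of these were *Gst* genes. *GstD1*, the major glutathione transferase of flies and a DDT-metabolising enzyme, stood highest at a mean of 502 CPM per kb, followed by *GstE12* at 153, *GstE13* at 95.1 and *GstT1* at 76.9 CPM per kb. Single WT libraries ran from 352 to 728 for *GstD1*, 103 to 225 for *GstE12*, 89.3 to 105 for *GstE13* and 68.6 to 95.4 for *GstT1*. These means pool 2 WT groups that differed, with *GstE12* at 151 CPM in the first and 276 CPM in the second. Among *Ugt* genes the order was *Ugt316A1* at 17.7, *Ugt317A1* at 12.3, *Ugt36D1* at 8.90 and *Ugt302K1* at 7.20 CPM per kb. At the other end, 37 genes had a mean under 1 CPM per kb, 27 *Ugt* and 10 *Gst* genes. Of these, 18 *Ugt* genes had at most 3 counts in every one of the 12 libraries, and *Ugt37E1*, *Ugt35E1*, *Ugt35E2*, *Ugt49B2*, *Ugt303B3* and *Ugt303B2* had none in any, so that a level of up to 3 counts a library cannot be told from absence.

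In *CTCF0* CNSs a set of these genes was more abundant than in WT, led by *GstD5*, *GstD9*, *GstD2*, *GstE7*, *Ugt35A1* and *Ugt49C1*, while 1 gene, *Ugt35C1*, was less abundant. Only 38 members reached 1 CPM, before TMM scaling, in 3 or more of the 6 libraries and were tested. Of these, 12 were differentially expressed (DE) upwards and 1 downwards in edgeR's quasi-likelihood test over all genes, where DE means a fold change above 1.5 with an adjusted p below 0.05. Over all 8718 genes tested, 1.93% were DE upwards and 0.883% downwards, against 31.6% and 2.63% of the members tested. The median log2 fold change was 0.60 over these members and 0.01 over all genes. The *Gst* genes gave 8 of the upward calls among 26 tested, and the *Ugt* genes 4 among 12. By chromosome, 7 of 16 members tested on chromosome 3 were DE, and 6 of 22 elsewhere, where over all genes tested 3.52% were DE on chromosome 3 and 2.26% elsewhere. A gene that is above 1 CPM in the mutant libraries alone had to differ to be tested at all, and that was so for *GstD2*, *GstD5*, *Ugt36A1*, *Ugt35A1* and the uncalled *Ugt37D1*. Leaving these out, 8 of 33 were DE upwards. The median of 0.60 includes these genes, and each of them lies above it. *Ugt35C1* was tested only through its WT libraries. The number of DE members depended on single libraries and was 6 without *CTCF0* replicate 1, 4 without WT replicate 1 and 6 without WT replicate 3. The median was 0.07 without *CTCF0* replicate 2 and 0.30 without *CTCF0* replicate 3, but over a different set of members. Without any *CTCF0* library the filter dropped *GstD2*, *GstD5*, *Ugt36A1* and *Ugt35A1*, which also lowered the count without *CTCF0* replicate 1. These medians therefore do not separate the library from the filter.

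**Figure D1:**
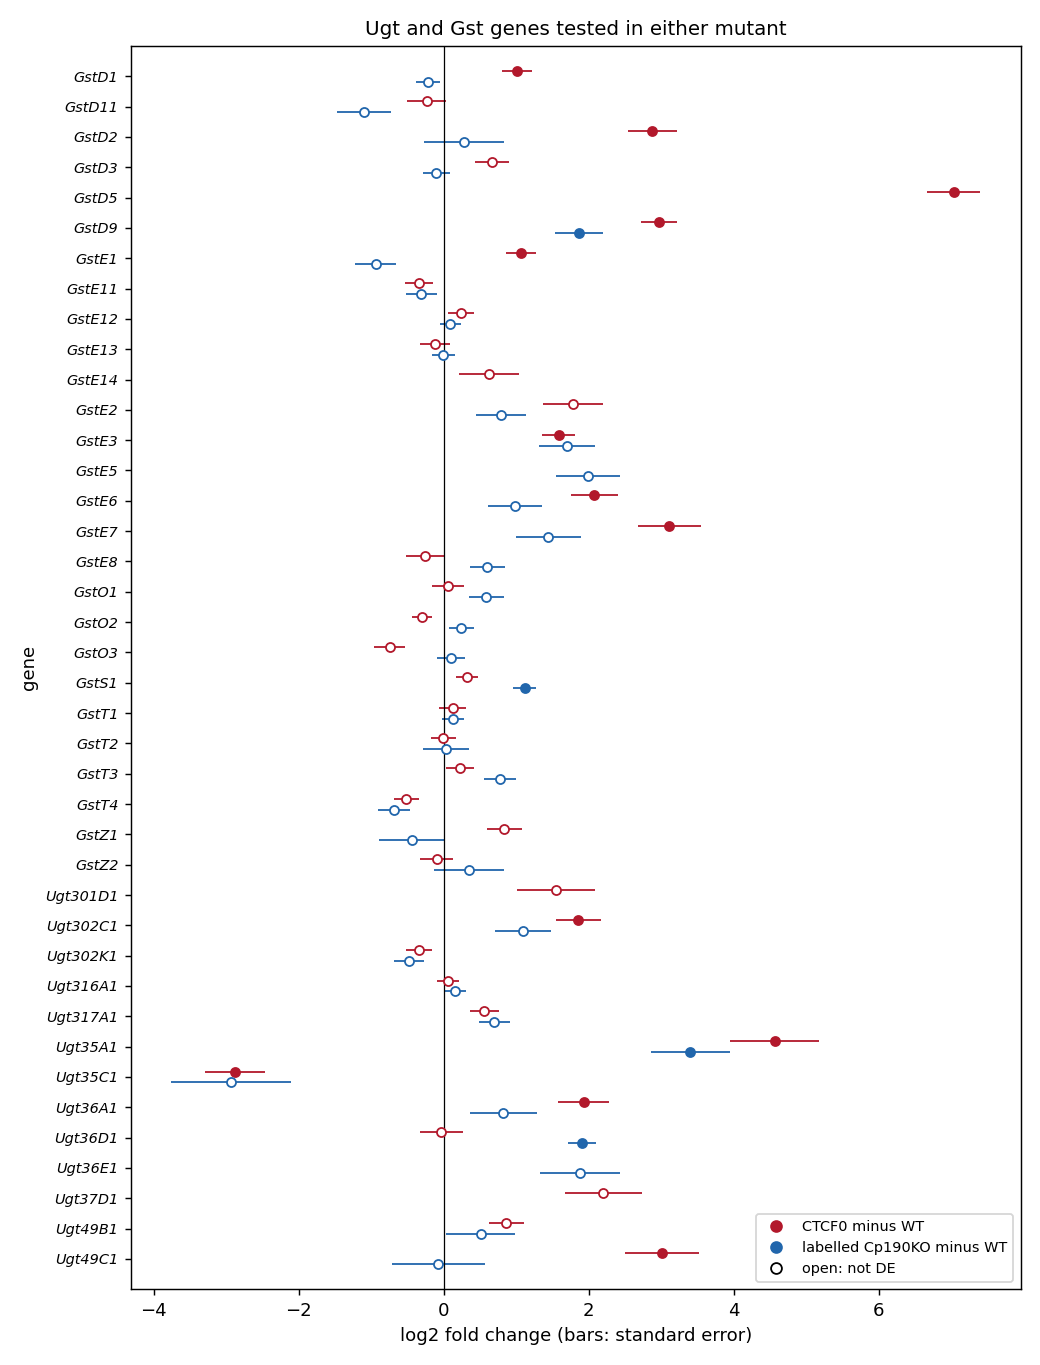
Log2 fold change (horizontal axis, points, with standard errors as bars) of each *Ugt* and *Gst* gene tested in either mutant, for *CTCF0* minus WT (red) and the libraries labelled *Cp190KO* minus WT (blue), with filled points for DE genes. *GstD5* lies farthest to the right at 7.03 in *CTCF0*, and *Ugt35C1* lies at -2.88 and -2.93 on the left, the second of these values an open point.

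In the *GstD* cluster, 4 of the 6 genes tested were DE upwards in *CTCF0*, and they did not stand in one block. *GstD5*, whose close relatives on both sides were nearly silent, had 13.1, 18.1 and 17.3 CPM in *CTCF0* libraries, against 0.169, 0.0862 and 0.0713 CPM in WT libraries. These are 707 reads in the mutant and 5 reads in WT, so the gene was almost undetected in WT and clearly expressed in every mutant library. Its log2 fold change was 7.03 ± 0.37 (SE, adjusted p = 4.1e-05), and the ratio of scaled counts was 139, with a 95% interval of 59.1 to 428 that covers counting error only. *GstD4* and *GstD6*, the genes on either side, had at most 4 counts in any *CTCF0* or WT library, and *GstD7* and *GstD8* at most 1.

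*GstD9* and *GstD1* are neighbours near the other end of the cluster, on the minus strand. *GstD9* had 15.3, 23.6 and 18.9 CPM in *CTCF0*, against 2.20, 2.67 and 2.50 CPM in WT (log2 fold change 2.97 ± 0.25, SE, adjusted p = 0.00043), with wide space between the groups. *GstD1* had 532, 813 and 506 CPM in *CTCF0*, against 306, 297 and 313 CPM in WT. The groups did not overlap, and the log2 fold change was 1.02 ± 0.21 (SE, adjusted p = 0.041). This call was lost without *CTCF0* replicate 1 or any single WT library (adjusted p between 0.14 and 0.25). *GstD2*, first of the plus-strand genes, had 4.59, 8.29 and 5.52 CPM in *CTCF0*, against 0.959, 0.863 and 0.641 CPM in WT, a log2 fold change of 2.88 ± 0.34 (SE, adjusted p = 0.0032). Next to it, *GstD3* had 74.0, 114 and 61.5 CPM in *CTCF0*, against 53.7, 49.5 and 53.0 CPM in WT, which did not overlap but did not pass the test (adjusted p = 0.27). *GstD11*, at the far end, was not DE, at a log2 fold change of -0.23 ± 0.27 (SE, adjusted p = 0.86). Summed over the cluster, *GstD* transcripts made up 612 to 980 CPM in *CTCF0* and 353 to 372 CPM in WT, most of it *GstD1*.

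**Figure D2:**
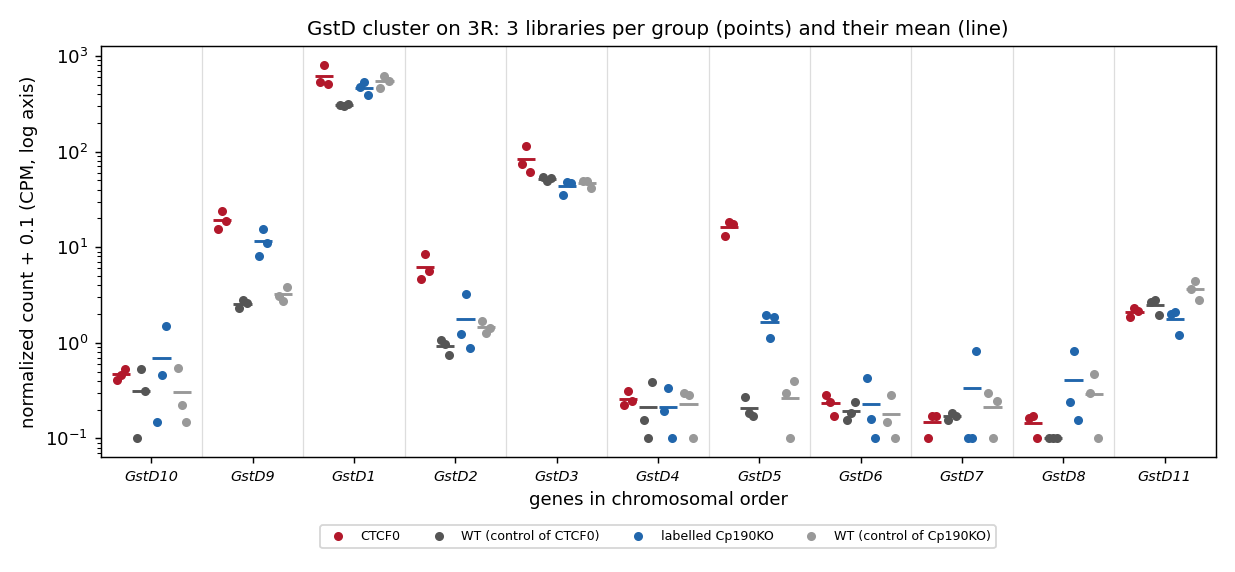
Normalized count plus 0.1 (CPM, log axis) of the 11 *GstD* genes in chromosomal order, with a point for each of 3 libraries and a line for the mean, for *CTCF0*, its WT, the libraries labelled *Cp190KO* and their WT. *GstD9*, *GstD1*, *GstD2*, *GstD3* and *GstD5* stand above WT in *CTCF0*, with *GstD3* not DE. *GstD4*, *GstD6*, *GstD7* and *GstD8* are under 1 CPM in every library.

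The *GstE* genes, which in flies conjugate glutathione to products of lipid oxidation and to insecticides, gave another 4 calls, all within the 10-gene cluster. *GstE7* had 6.37, 6.95 and 9.22 CPM in *CTCF0*, against 1.30, 0.949 and 0.285 CPM in WT, a log2 fold change of 3.11 ± 0.43 (SE, adjusted p = 0.0070). *GstE6*, its left neighbour, had 21.6, 25.9 and 30.2 CPM in *CTCF0*, against 5.42, 9.23 and 3.85 CPM in WT, a log2 fold change of 2.08 ± 0.32 (SE, adjusted p = 0.012, and 0.093 without WT replicate 1). In both genes the lowest mutant library was above the highest WT library. *GstE3* had 17.8, 18.2 and 12.2 CPM in *CTCF0* and 5.36, 5.35 and 5.35 CPM in WT, a log2 fold change of 1.59 ± 0.23 (SE, adjusted p = 0.0070). *GstE1* had 61.1, 84.8 and 66.4 CPM in *CTCF0* and 31.0, 41.0 and 29.4 CPM in WT, a log2 fold change of 1.07 ± 0.20 (SE, adjusted p = 0.031). Neither overlapped between groups. The *GstE3* call was lost without *CTCF0* replicate 1, WT replicate 1 or WT replicate 3 (adjusted p between 0.054 and 0.066), and that of *GstE1* without *CTCF0* replicate 1 or any WT library (0.052 to 0.24).

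Between these, *GstE2* had 13.2, 10.1 and 27.6 CPM in *CTCF0*, against 5.36, 6.21 and 3.21 CPM in WT, also without overlap, but with a wide spread in the mutant. It was short of the threshold by edgeR (adjusted p = 0.072) and DE by DESeq2 (adjusted p = 0.0002), so its status depends on the tool. *GstE4* and *GstE5* stayed under 0.5 CPM in all 6 libraries of this experiment. *GstE8*, right of *GstE7*, had 3.67, 5.74 and 3.49 CPM in *CTCF0*, against 5.53, 5.17 and 4.63 CPM in WT, which overlapped. Outside the cluster, the abundant *GstE12* had 151, 219 and 163 CPM in *CTCF0* and 164, 145 and 144 CPM in WT (log2 fold change 0.24 ± 0.18, SE, adjusted p = 0.75). *GstE13* had 91.1, 123 and 74.3 CPM in *CTCF0* and 106, 96.8 and 111 CPM in WT (-0.12 ± 0.20, SE, adjusted p = 0.90). Both overlapped between the groups. *GstE1* and *GstE10* share 20 bp of exon on opposite strands, and *GstE10* had at most 2 counts in any of these 6 libraries.

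**Figure D3:**
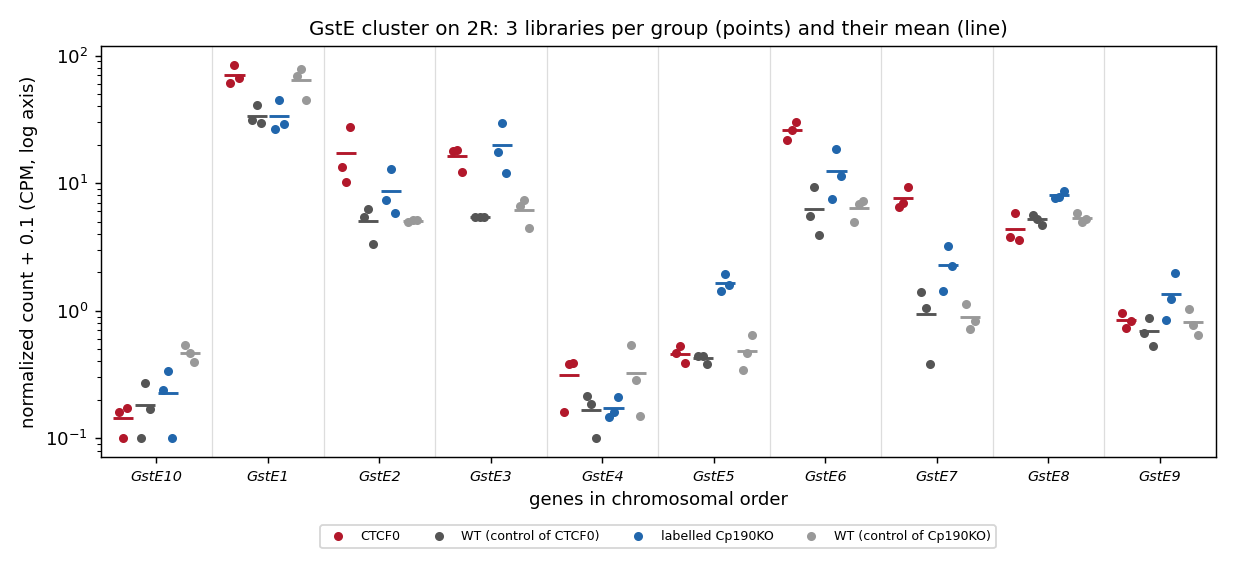
Normalized count plus 0.1 (CPM, log axis) of the 10 clustered *GstE* genes in chromosomal order, drawn with a point for each library and a line for the mean of a group. *GstE6* and *GstE7* stand above WT in *CTCF0*, and *GstE1* is the only gene of the row with *CTCF0* above and the libraries labelled *Cp190KO* below their WT without overlap.

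Of the 10 members of the omega, sigma, theta and zeta classes, 0 were DE in *CTCF0* by edgeR or DESeq2, with 3 at an unadjusted p under 0.05, 1 higher and 2 lower. Over all 8718 genes tested by edgeR, 1057 had an unadjusted p under 0.05 in either direction. *GstO3*, an omega-class enzyme of the cluster that also holds *se*, the gene for an enzyme of red eye pigment synthesis, had 30.1, 36.9 and 21.4 CPM in *CTCF0*, against 55.9, 45.6 and 46.8 CPM in WT. All mutant libraries were below WT, but the change did not pass the test (log2 fold change -0.75 ± 0.22, SE, adjusted p = 0.17), and neither did that of *GstO2*, with 98.1, 88.2 and 92.9 CPM in *CTCF0* and 109.5, 113 and 121 CPM in WT (-0.30 ± 0.14, SE, adjusted p = 0.48). *GstT4* had 16.5, 17.2 and 17.6 CPM in *CTCF0* and 22.0, 25.9 and 25.6 CPM in WT, again without overlap and short of the threshold (adjusted p = 0.23). The 3 *GstO* genes summed to 121 to 136 CPM in *CTCF0* and 167 to 174 CPM in WT. *GstT1*, with 75.0, 100.2 and 65.7 CPM in *CTCF0* and 75.4, 68.4 and 77.0 CPM in WT, overlapped between the groups.

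Among UDP-glycosyltransferases, the 3R cluster held 2 DE genes among 3 tested, *Ugt35A1* and *Ugt302C1*, apart from each other. *Ugt35A1* had 4.29, 3.97 and 7.26 CPM in *CTCF0*, against 0.226, 0.431 and 0 CPM in WT, or 226 and 9 reads. The log2 fold change was 4.57 ± 0.61 (SE, adjusted p = 0.0059, and 0.056 without WT replicate 1), and the ratio of scaled counts 24.6, with a counting interval of 12.7 to 54.5. *Ugt302C1* had 7.34, 7.66 and 11.3 CPM in *CTCF0* and 2.65, 3.02 and 1.57 CPM in WT, a log2 fold change of 1.86 ± 0.31 (SE, adjusted p = 0.017), with adjusted p between 0.064 and 0.098 when WT replicate 1 or 3 was left out. Each *CTCF0* library was above every WT library in both genes, but *Ugt35A1* reached the filter in its mutant libraries alone and had to differ to be tested. *Ugt302K1*, the most abundant gene of this cluster in WT, had 13.3, 15.1 and 14.7 CPM in *CTCF0* and 19.5, 16.2 and 18.5 CPM in WT, and its log2 fold change of -0.33 ± 0.18 did not pass the test (SE, adjusted p = 0.56). *Ugt35E1* and *Ugt35E2*, which lie between *Ugt302C1* and *Ugt35A1*, had no counts.

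*Ugt35C1*, formerly Ugt86Dd and known for its part in the nicotine resistance of larvae, was the only member DE downwards. It had 0.245, 0.213 and 0.363 CPM in *CTCF0*, against 2.71, 1.98 and 1.43 CPM in WT, or 12 and 91 reads. The log2 fold change was -2.88 ± 0.41 (SE, adjusted p = 0.0075) and the ratio of scaled counts 0.129 (counting interval 0.0644 to 0.237). The groups were apart, but the gene reached the filter in its WT libraries alone and had to differ to be tested. This gene is low in both groups, and it could not be tested when any one WT library was left out. The same held for *GstD5*, *GstD2*, *Ugt36A1* and *Ugt35A1* when a *CTCF0* library was left out.

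**Figure D4:**
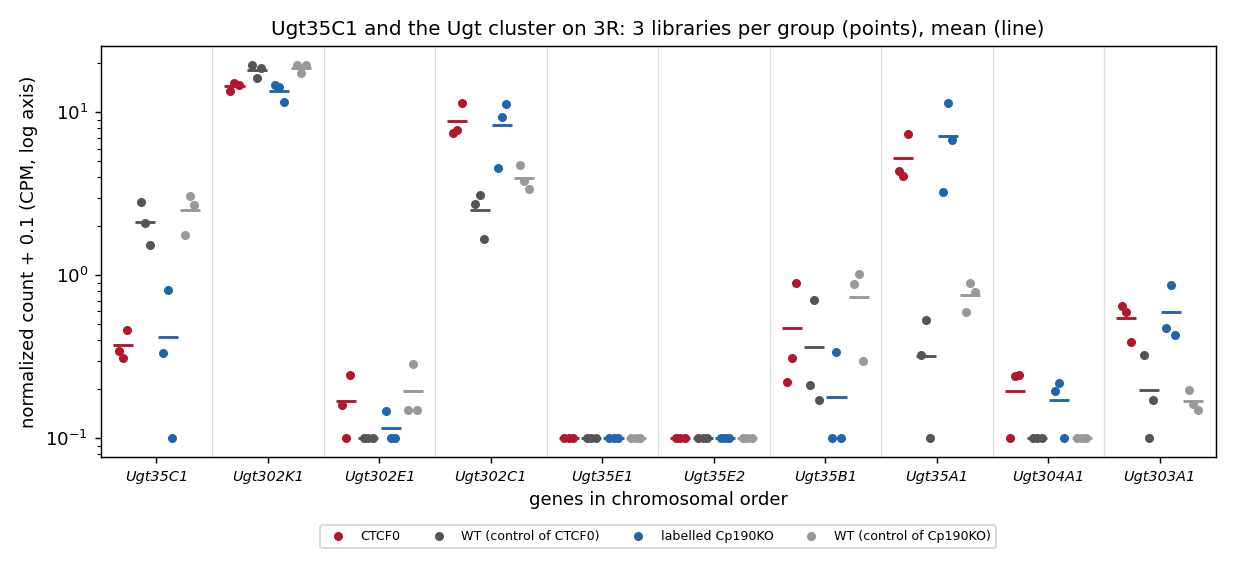
Normalized count plus 0.1 (CPM, log axis) of *Ugt35C1* and the 9 clustered *Ugt* genes of 3R in chromosomal order, with a point for each library and a line for the mean of a group. *Ugt35A1* is above and *Ugt35C1* below WT in both mutant groups, and *Ugt35E1* and *Ugt35E2* are at 0 in all 12 libraries.

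The other 2 *Ugt* calls in *CTCF0* came from chromosome 2. *Ugt49C1* had 7.22, 8.22 and 11.8 CPM in *CTCF0* and 0.564, 2.33 and 0.641 CPM in WT, a log2 fold change of 3.01 ± 0.51 (SE, adjusted p = 0.017). Its neighbour *Ugt49B1* had 3.98, 4.61 and 5.52 CPM in *CTCF0* and 2.54, 2.33 and 2.85 CPM in WT, which did not overlap but did not pass the test (adjusted p = 0.15). *Ugt36A1* had 3.31, 1.91 and 3.63 CPM in *CTCF0* and 0.734, 0.949 and 0.641 CPM in WT, a log2 fold change of 1.93 ± 0.35 (SE, adjusted p = 0.024). Both calls were lost without WT replicate 1 or 3, with adjusted p of 0.060 to 0.098 for *Ugt49C1* and 0.11 to 0.15 for *Ugt36A1*. The abundant *Ugt316A1* had 63.7, 57.1 and 65.2 CPM in *CTCF0* and 61.3, 57.5 and 59.6 CPM in WT, while *Ugt317A1* had 24.6, 34.2 and 25.7 CPM in *CTCF0* and 21.5, 18.6 and 17.0 CPM in WT (adjusted p = 0.28). Summed over all members, *Ugt* transcripts came to 146 to 165 CPM in *CTCF0* and 119 to 132 CPM in WT, and *Gst* transcripts to 1538 to 2074 CPM in *CTCF0* and 1215 to 1295 CPM in WT.

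In the libraries labelled *Cp190KO*, *Ugt36D1*, *Ugt35A1*, *GstS1* and *GstD9* were more abundant than in their WT. Of 36 members tested, 4 were DE upwards and 0 downwards in edgeR's quasi-likelihood test, or 11.1% upwards, where over all 8599 genes tested 1.38% were DE upwards and 1.02% downwards. On the lower side, 4 members had an unadjusted p under 0.05, and DESeq2 called 3, *GstT4*, *GstE1* and *Ugt35C1*. DESeq2 called 7 higher, among them *Ugt36E1*, *GstE5* and *GstE3*, which edgeR did not call. The share over all genes is not given for DESeq2. In either direction, 18 of the 36 members had an unadjusted p under 0.05 by edgeR, where 1130 of all 8599 genes did. The median log2 fold change was 0.32 over the members and 0.08 over all genes. On chromosome 3, 2 of 15 members tested were DE, and 2 of 21 elsewhere, with 2.86% and 2.05% over all genes tested. *GstE5* and *Ugt35A1* were tested through their mutant libraries alone, and 3 of the other 34 were DE upwards. The median of 0.32 includes both genes, and each lies above it. *Ugt35C1* was again tested only through its WT libraries. The count of 4 fell to 2 without the replicate 3 library that stood apart, and to 1 without any single WT library. When any 1 library labelled *Cp190KO* was left out, the filter dropped *Ugt35A1*. Among these mutant libraries, only the loss of *GstD9* was particular to replicate 3. Fitted with all 12 libraries together, 10 members were DE, but the share over all genes is not given for that fit.

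*Ugt36D1* gave the firmest of these calls and was DE in each of the 6 fits that left a library out. It had 77.5, 110.1 and 85.8 CPM in the libraries labelled *Cp190KO*, against 26.0, 25.7 and 21.0 CPM in their WT, a log2 fold change of 1.91 ± 0.19 (SE, adjusted p = 0.0043). All mutant libraries were well above WT. Its neighbour *Ugt36E1* had 2.44, 7.67 and 2.38 CPM in the libraries labelled *Cp190KO* and 0.837, 1.29 and 1.23 CPM in WT, without overlap but with 1 library far above the others of its group (log2 fold change 1.89 ± 0.55, SE, adjusted p = 0.18). *GstS1*, the sigma-class enzyme, had 304, 383 and 264 CPM in the libraries labelled *Cp190KO*, against 134, 146 and 157 CPM in WT. Its log2 fold change was 1.12 ± 0.16 (SE, adjusted p = 0.014), and the adjusted p lay between 0.081 and 0.10 when any one WT library was left out.

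*Ugt35A1* had 3.15, 11.3 and 6.64 CPM in the libraries labelled *Cp190KO* and 0.492, 0.802 and 0.688 CPM in WT, a log2 fold change of 3.41 ± 0.54 (SE, adjusted p = 0.022). When any one WT library was left out its adjusted p was 0.14, and without a mutant library it could not be tested. *GstD9* had 7.99, 15.4 and 10.8 CPM in the libraries labelled *Cp190KO*, against 2.96, 2.65 and 3.73 CPM in WT, a log2 fold change of 1.87 ± 0.33 (SE, adjusted p = 0.031). Its call was lost without *Cp190KO* replicate 3 or any one WT library (adjusted p between 0.13 and 0.20). In both genes the groups did not overlap, but *Ugt35A1* reached the filter in its mutant libraries alone and had to differ to be tested.

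Other members did not pass the test or the filter in the second experiment. *Ugt35C1* had 0.235, 0.719 and 0 CPM in the libraries labelled *Cp190KO*, against 1.67, 2.96 and 2.60 CPM in WT, a log2 fold change of -2.93 ± 0.82 (SE, adjusted p = 0.17). All 3 of these libraries were below every WT library, which the filter required, since the gene reached it in WT libraries alone. Replicate 3 held no read, but it is the library that stood apart with few genes at 1 to 3 counts. *GstE3* had 17.3, 29.7 and 11.9 CPM in the libraries labelled *Cp190KO* and 6.50, 7.22 and 4.37 CPM in WT (log2 fold change 1.70 ± 0.39, SE, adjusted p = 0.080). *GstD5* was not tested in this experiment, since the filter used CPM before TMM scaling and replicate 2 was at 0.917 on that scale. After scaling it had 1.83, 1.02 and 1.77 CPM in the libraries labelled *Cp190KO* and 0.197, 0 and 0.295 CPM in WT, or 88 and 10 reads, a ratio of scaled counts of 8.93 with a counting interval of 4.63 to 19.3. *GstE5* had 1.31, 1.86 and 1.495 CPM in the libraries labelled *Cp190KO* and 0.246, 0.370 and 0.540 CPM in WT (adjusted p = 0.075). In the first experiment *GstE5* had 0.290 to 0.425 CPM in *CTCF0* and 0.285 to 0.345 CPM in WT. *GstD9* and *Ugt35A1* were DE in both mutants, out of 34 members tested in both. Over all 8463 genes tested in both, 0.579% were. *Ugt35A1* was tested in each experiment through its mutant libraries alone, while *GstD9* was above 1 CPM in all 12 libraries.

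Among the members with the smallest p on the lower side, *GstE1* had 26.4, 44.5 and 29.2 CPM in the libraries labelled *Cp190KO* and 69.2, 77.9 and 45.0 CPM in WT (log2 fold change -0.94 ± 0.28, SE, adjusted p = 0.19). *GstT4* had 20.1, 21.7 and 13.9 CPM in the libraries labelled *Cp190KO* and 29.4, 29.5 and 31.0 CPM in WT (-0.69 ± 0.22, SE, adjusted p = 0.23). *GstD11* had 1.88, 1.98 and 1.11 CPM in the libraries labelled *Cp190KO* and 3.60, 4.38 and 2.70 CPM in WT (-1.10 ± 0.37, SE, adjusted p = 0.25). The groups of these genes, which were picked by small p, did not overlap, and none passed the test. The share of all genes without overlap was not counted. The abundant *GstD1*, *GstE12*, *GstE13*, *GstT1* and *Ugt316A1* had log2 fold changes between -0.22 and 0.16 in this experiment, none DE.

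The direct test of whether a gene changed differently in the mutants, run in 1 fit of all 12 libraries, was passed by 4 of 40 members, *GstE1*, *GstD1*, *Ugt36D1* and *Ugt36E1*. Over all 8954 genes in that fit, 1.42% passed. For *GstE1* the log2 change in *CTCF0* exceeded that in the libraries labelled *Cp190KO* by 2.02 ± 0.36 (SE, adjusted p = 0.014), and the call held in 11 of 12 fits with a library left out (adjusted p = 0.052 without the first experiment's WT replicate 3). The changes run in opposite directions, and neither experiment's groups overlapped. Levels also differed between the WT controls, with 45.0 to 77.9 CPM in that of the second experiment and 29.4 to 41.0 CPM in that of the first, so that *CTCF0* libraries at 61.1 to 84.8 CPM lay in the range of the other experiment's WT or above it. *GstD1* differed by 1.25 ± 0.28 (SE, adjusted p = 0.049) and kept this call in 3 of 12 such fits, the adjusted p lying between 0.067 and 0.15 in those without *CTCF0* replicate 1, *Cp190KO* replicate 1 or 3, or any one of the 6 WT libraries. Here too the WT of the second experiment, at 464, 614 and 548 CPM, was above that of the first. Instrument and read layout differ between the experiments in the same way as these controls, and the 2 cannot be told apart.

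*Ugt36D1* and *Ugt36E1*, which lie head to tail, differed the other way. For *Ugt36D1* the difference was -1.93 ± 0.38 (SE, adjusted p = 0.020), with overlapping values of 14.2, 21.8 and 11.8 CPM in *CTCF0* and 17.9, 11.3 and 19.5 CPM in WT beside the clear rise in the libraries labelled *Cp190KO*. The call held in 5 of 12 fits, and the adjusted p was between 0.051 and 0.077 without *CTCF0* replicate 1, *Cp190KO* replicate 3, WT replicate 1 or 3 of the first experiment, or any WT library of the second. For *Ugt36E1* the difference was -4.16 ± 0.76 (SE, adjusted p = 0.014), called in 12 of 12 fits. *Ugt36E1* had 0.245, 0.142 and 0.218 CPM in *CTCF0*, against 0.959, 1.12 and 0.998 CPM in WT, or 9 and 44 reads, a ratio of scaled counts of 0.20 with a counting interval of 0.0861 to 0.416. It was too low for the filter in the *CTCF0* experiment alone and shares 48 bp of exon with CG17597 on the other strand. *GstD5*, for which the log2 changes differed by 3.94 ± 0.91 (SE), did not pass (adjusted p = 0.055).

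**Figure D5:**
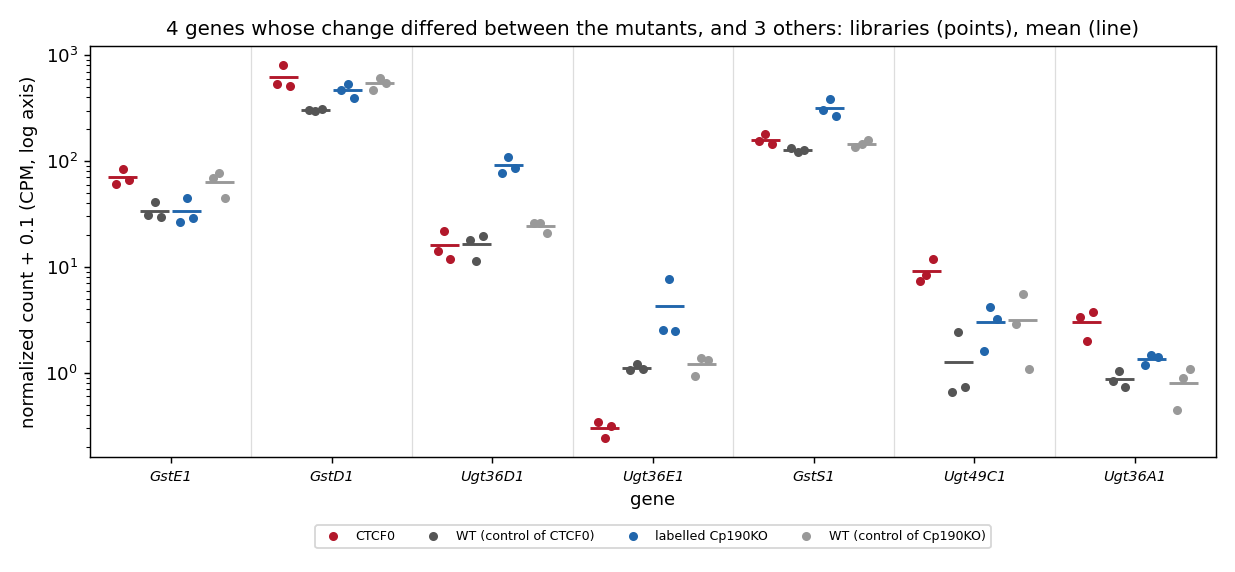
Normalized count plus 0.1 (CPM, log axis) of *GstE1*, *GstD1*, *Ugt36D1* and *Ugt36E1*, whose changes differed between the mutants, and of *GstS1*, *Ugt49C1* and *Ugt36A1*, with a point for each of 3 libraries and a line for the mean of each group. *GstE1* is higher than WT in *CTCF0* and lower in the libraries labelled *Cp190KO*, and *Ugt36E1* is the reverse.

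Genes that serve the same chemistry but lie outside the families were counted beside the share over all genes. Among 35 such genes, for glutathione synthesis and recycling, the CncC-Keap1 and other regulators, UDP-sugar donors, further glutathione transferases, efflux transporters and cytochromes P450 known from the xenobiotic response, 25 were tested in *CTCF0*, where 1 was DE upwards and 0 downwards by edgeR (1.93% and 0.883% over all genes), with a median log2 fold change of 0.18. At an unadjusted p under 0.05 there were 3 higher and 0 lower, and DESeq2 called 2 higher and 0 lower. Over all 8718 genes tested by edgeR, 1057 had an unadjusted p under 0.05 in either direction, a share near that of these genes. The gene DE by edgeR was *Mdr65*, an efflux transporter of the blood-brain barrier, with 203, 209.8 and 233 CPM in *CTCF0* and 119.5, 141 and 106 CPM in WT (log2 fold change 0.82 ± 0.16, SE, adjusted p = 0.037). The regulators *cnc*, *Keap1* and *maf-S* had log2 fold changes of -0.18 ± 0.33, 0.44 ± 0.26 and -0.08 ± 0.19 in *CTCF0* (SE), none DE. *Gclc*, the catalytic subunit for the first step of glutathione synthesis, had 19.1, 13.3 and 23.5 CPM in *CTCF0* and 6.998, 9.83 and 6.63 CPM in WT, without overlap and just short of the threshold (adjusted p = 0.054). In the libraries labelled *Cp190KO*, 24 were tested, 1 was DE upwards and 0 downwards by edgeR (1.38% and 1.02% over all genes), with a median of -0.03, while 4 were higher and 2 lower at an unadjusted p under 0.05 and DESeq2 called 2 higher and 1 lower. Among all 8599 genes tested there by edgeR, 1130 had an unadjusted p under 0.05 in either direction. The gene DE by edgeR was *crc*, the fly ATF4, with 77.6, 57.1 and 83.0 CPM in the libraries labelled *Cp190KO* and 35.1, 29.1 and 33.3 CPM in WT (1.16 ± 0.19, SE, adjusted p = 0.023). These counts were not stable to single libraries. In *CTCF0*, 4 genes were DE without *CTCF0* replicate 2 and 0 without any other single library, and the *crc* call was lost without *Cp190KO* replicate 3 or any WT library of its experiment. The 7 P450 genes summed to at most 3.19 CPM in any library.

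Markers of the cell types that a dissected CNS can hold moved with some of these results, and their part in them was not tested. In bulk tissue, more cells of a type and more RNA per cell cannot be told apart. None of the neuronal or neuroblast markers was DE in either experiment by edgeR. Neuronal markers summed to 624, 406 and 822 CPM in *CTCF0* and to 550, 721 and 531 CPM in WT. In the libraries labelled *Cp190KO* they summed to 918, 210 and 579 CPM, against 518, 325 and 447.5 CPM in WT. The sums of the neuroblast markers overlapped between the groups in both experiments. Of 6 glial markers 0 were DE in either experiment by edgeR, with 2 higher and 0 lower in *CTCF0* and 3 higher and 1 lower in the libraries labelled *Cp190KO* at an unadjusted p under 0.05, and DESeq2 called 2 higher in each. That threshold was passed by 1057 of all 8718 genes in *CTCF0* and by 1130 of 8599 in the second experiment. The glial markers summed to 967 to 1261 CPM in *CTCF0* and 664 to 844 CPM in WT, and to 1242 to 1715 CPM in the libraries labelled *Cp190KO* and 934 to 1004 CPM in their WT. Among the libraries labelled *Cp190KO*, replicate 2 was lowest for neuronal and highest for glial markers. All members DE in that experiment were also highest in this library, and a link between these was not tested. The 3 markers of blood-brain barrier glia, with *Mdr65* DE among them, summed to 228 to 267 CPM in *CTCF0* and 120.0 to 154 CPM in WT, while 176 to 289 CPM in the libraries labelled *Cp190KO* overlapped 146 to 185 CPM in WT. Of 4 muscle markers 1, *Mlc2*, was DE upwards in *CTCF0*, and their sum was 44.5 to 52.7 CPM in *CTCF0* and 19.2 to 28.2 CPM in WT. Fat body markers summed to 6.17 to 37.0 CPM in *CTCF0* and 7.56 to 51.5 CPM in WT, and the 4 midgut markers to at most 0.508 CPM in any library, with *alphaTry* and *betaTry* at 0 in all *CTCF0* libraries. Of the 2 Malpighian tubule markers, *Uro* was at 0 in all libraries but 1 of *CTCF0*, at 0.0726 CPM, while *CapaR* had 0.734 to 0.851 CPM in *CTCF0* and 0.713 to 1.55 CPM in WT, and 0 to 0.898 CPM in the libraries labelled *Cp190KO* and 0.394 to 0.786 CPM in WT. Of 4 haemocyte markers 2 were tested in *CTCF0* and 1 in the libraries labelled *Cp190KO*, and 0 were DE by edgeR. Their sum, most of it *Pxn*, was 129 to 176 CPM in *CTCF0* and 97.5 to 139 CPM in WT, and 98.8 to 148 CPM in the libraries labelled *Cp190KO* and 119 to 132 CPM in WT. Among them *Hml* had 8.14, 1.49 and 1.74 CPM in *CTCF0* and 0.226, 1.21 and 0.142 CPM in WT (log2 fold change 2.97 ± 0.90, SE, adjusted p = 0.19), and 0.845, 4.43 and 0.775 CPM in the libraries labelled *Cp190KO* and 0.148, 0.247 and 0.295 CPM in WT, where it was too low to be tested. The groups of *Hml* did not overlap in either experiment, while those of *Pxn*, *NimC1* and *He* overlapped in both. *NimC1* had means of 0.184 CPM in *CTCF0* and 0.180 CPM in WT. In the second experiment its means were 0.0912 CPM in the libraries labelled *Cp190KO* and 0.348 CPM in WT. For *Pxn* they were 125 and 126 CPM there.

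*GstE14*, also called *nobo* and named here after its values were seen, acts in ecdysteroid synthesis in the prothoracic gland, a part of the ring gland attached to the larval brain. It had 4.53, 8.44 and 2.54 CPM in *CTCF0* and 3.89, 2.93 and 3.14 CPM in WT, which overlapped. In the second experiment it had 0.517, 0.419 and 0 CPM in the libraries labelled *Cp190KO* and 0.492, 0.493 and 5.80 CPM in WT, so that 1 WT library, replicate 3, held nearly all of its reads. The 5 ring gland markers measured, *phm*, *dib*, *sad*, *spok* and *Akh*, summed to 29.8, 17.9 and 16.0 CPM in the libraries labelled *Cp190KO* and to 11.97, 26.3 and 265 CPM in WT, with the same library high. In the first experiment they summed to 182 to 248 CPM in *CTCF0* and 153 to 214 CPM in WT, with *Akh* alone DE upwards. There the library highest for *GstE14*, *CTCF0* replicate 2, was not the highest for these markers, which was *CTCF0* replicate 1 at 248 CPM. The part of ring gland tissue in the *GstE14* values was not tested. The Cp190 fits without WT replicate 3 are among those given above.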

How the data were processed

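Poly(A)-selected, strand-specific mRNA libraries from CNSs of larvae in the third instar were analysed, 3 for each of 4 groups. The authors aligned reads to dm6 and to FlyBase transcripts with Micmap, and HTSeq 0.9.1 gave the deposited counts per gene. Each library lists 17510 genes, and every value was checked to be whole and unnormalized. The summary rows for unassigned reads, 14.2% to 23.4% of all reads, were left out, and 0 columns of other samples were present. Symbols and positions for 17405 genes came from an Ensembl annotation of dm6.

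A gene was tested where 3 or more libraries of the fit reached 1 CPM, computed from unscaled totals. TMM factors were computed over the libraries of each fit. These were within an experiment for each mutant, and over all 12 libraries for the difference. The program edgeR 4.0.16 in R 4.3.3 fitted a robust quasi-likelihood model to each mutant with its own WT, and to all 12 libraries for the difference between the changes. P-values are two-sided and were adjusted by Benjamini-Hochberg over all genes of a fit. DE means a fold change above 1.5 with an adjusted p below 0.05. The difference was called on the adjusted p-value alone. Whether groups overlap is described gene by gene, and its share over all genes was not counted. A standard error is the size of the log2 change divided by the square root of the F statistic. Printed CPM use library sizes scaled by TMM within each experiment. Ratios of low counts have exact 95% intervals, which cover counting error only, and a count of 3 was taken as the floor of a library. The calculation was tested on simulated data.

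Values per library, in at least the comparison that named the gene, were given for every member DE in a mutant or called in the difference, for the 4 rising and 4 falling members of smallest p in each mutant, and for the 4 *Ugt* and 4 *Gst* genes most abundant in WT, with neighbours in a cluster. The members, lists and rules were chosen with earlier results of these data known. Alternatives were DESeq2 1.42.0, RLE factors, library sizes only, filterByExpr, no filter, one fit of all libraries, a replicate block, other cluster gaps, other thresholds and each library left out. Sequences were not used here.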

Additional observations from a re-analysis of the deposited data

Results flagged for a closer look

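For 4 genes the change differed between the mutants in a direct test of that difference over all 12 libraries. The log2 change in *CTCF0* minus that in the libraries labelled *Cp190KO* was 2.02 for *GstE1* (adjusted p = 0.014, edgeR), with CPM of 61.1 to 84.8 in *CTCF0* and 29.4 to 41.0 in WT, and of 26.4 to 44.5 in the libraries labelled *Cp190KO* and 45.0 to 77.9 in WT. For *GstD1* it was 1.25 (adjusted p = 0.049), the weakest of these calls, with 506 to 813 CPM in *CTCF0* and 297 to 313 in WT, and 389 to 539 in the libraries labelled *Cp190KO* and 464 to 614 in WT. For *Ugt36D1* it was -1.93 (adjusted p = 0.020), a gene at 11.8 to 21.8 CPM in *CTCF0* and 11.3 to 19.5 in WT, and at 77.5 to 110.1 in the libraries labelled *Cp190KO* and 21.0 to 26.0 in WT. For its neighbour *Ugt36E1* it was -4.16 (adjusted p = 0.014), with 0.142 to 0.245 CPM in *CTCF0* and 0.959 to 1.12 in WT, and 2.38 to 7.67 in the libraries labelled *Cp190KO* and 0.837 to 1.29 in WT.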

How the results depend on the processing

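The count of 13 DE members in *CTCF0* was 9 to 16 under the alternatives other than leaving out a library, and 4 to 11 with a library left out. The 4 in the libraries labelled *Cp190KO* became 10 with DESeq2 and 10 with all 12 libraries in one fit, and 1 to 6 with a library left out. The 4 members that changed differently became 7 with DESeq2 and 1 to 6 with a library left out. Genes of the pathway lists went with *CTCF0* to 2 with DESeq2, RLE scaling, filterByExpr or no filter, to 0 with library sizes only and to 0 to 4 with a library left out. In the libraries labelled *Cp190KO* they went to 3 with DESeq2, 2 with all 12 libraries, 0 with library sizes only and 0 to 1 with a library left out. Replicate numbers were not used as pairs in the main fits. In the first experiment, deviations from the group mean correlated at -0.50 to -0.16 between same-numbered mutant and WT libraries. Other mutant and WT pairs correlated at -0.27 to 0.54 there. In the second experiment the values were -0.01 to 0.48 for the same number and -0.34 to 0.34 for other pairs. They do not settle whether the numbers mark pairs. With the replicate block, 9 members were DE in *CTCF0*, 3 in the libraries labelled *Cp190KO*, 2 differed between mutants and 0 pathway genes were DE in *CTCF0*. Shares over all genes are not given for these alternatives, and the cause of these shifts was not tested.

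Near 0 and never called, some log2 values changed sign. Ugt36D1 in CTCF0 was 0.00874 with library sizes only, and with the replicate block *Ugt49C1* in the libraries labelled *Cp190KO* was 0.063 and the *GstT1* difference -0.033. With a library left out, values ran in *CTCF0* from -0.38 to 0.038 for *GstE13*, -0.10 to 0.26 for *GstT1* and -0.37 to 0.15 for *Ugt36D1*. In the libraries labelled *Cp190KO* they ran from -0.51 to 0.63 for *GstD2*, -0.026 to 0.19 for *GstE12*, -0.14 to 0.13 for *GstE13*, -0.054 to 0.25 for *GstO3* and -0.50 to 0.59 for *Ugt49C1*. The difference between mutants ran from -0.047 to 0.30 for *GstE12*, -0.34 to 0.061 for *GstE13*, -0.34 to 0.36 for *GstE3*, -0.20 to 0.13 for *GstT1*, -0.21 to 0.02 for *Ugt316A1*, -0.31 to 0.041 for *Ugt317A1* and -0.49 to 1.36 for *Ugt35C1*. Low counts limit most *Ugt* genes, since 18 had at most 3 counts in every library.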
